A study of Homo sapiens with 6 samples.

Results

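PGAM5 and 9 nuclear genes for mitochondrial fission, fusion and mitophagy were followed in HCT116, an established human colorectal cancer cell line. The 10 genes were taken from the deposited table by symbol (PGAM5, DNM1L, FUNDC1, PINK1, PARL, OPA1, MFN1, MFN2, HTRA2 and FIS1), and each matched 1 of the 58938 entries. All 10 had a mean of at least 1 FPKM over the 6 libraries, the level needed to enter the test. FPKM is the number of sequenced fragments per kilobase of gene, scaled for each library, so it can be compared between genes as a level per length.

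The vector group held 3 libraries of HCT116 cells with the genotype given as WT, and the MST3 group held 3 libraries of the same line with the genotype given as overexpression of MST3, a kinase encoded by STK24. All cells were grown in IMDM with 10% serum, transfected by lipofection at 60% density, given new medium after 6 hours and lysed after 30 hours. The labels name neither the promoter of the plasmid nor any selection of transfected cells, and the same treatment text stands on all 6 samples. Nothing in them ties the numbered replicates to different cultures. The p-values below therefore reflect the spread among these 6 samples only, and that spread may be technical. The series title links MST3 with release of PGAM5 from mitochondria and with YAP, which raises the question of whether mRNAs for PGAM5 and for the proteins it works with differed after MST3 overexpression. Only RNA was measured, so the place, cleavage and phosphorylation of these proteins were not.

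PGAM5 is a serine/threonine phosphatase of the phosphoglycerate mutase family that sits in mitochondrial membranes and is cut by the inner membrane protease PARL. It removes phosphate from the mitophagy receptor FUNDC1 and from DNM1L (DRP1), the GTPase that constricts mitochondria. The balance between DNM1L-driven fission and the fusion GTPases MFN1, MFN2 and OPA1 sets the shape of the mitochondrial network, and PINK1 marks damaged mitochondria for removal.

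The libraries held 15289213 to 17708029 reads recovered from the FPKM values, and 25099 to 27442 genes had at least 1 read. MST3 replicate 1 had both the fewest reads and the most genes, the next values being 17178700 reads and 25501 genes. STK24 stood at 17.1 to 17.4 FPKM in the vector libraries and at 63.7 to 76.0 FPKM in the MST3 libraries (log2 difference 1.97, adjusted p = 0.000998 by limma), so every MST3 library lay above every vector library. Of 9 epithelial markers, EPCAM, CDH1, KRT8, KRT18, KRT19, CLDN4 and CLDN7 were high in all libraries, the lowest value being 26.7 FPKM for CDH1, CDX2 averaged 3.33 FPKM and VIL1 was near 0 at 0.0112 FPKM. Of 18 markers of leukocytes, fibroblasts, endothelium, liver and neurons, 16 were below 1 FPKM on average, the exceptions being COL1A1 at 4.25 FPKM and TUBB3 at 2.55 FPKM. MST3 replicates 1 and 3 lay farther from the vector mean than MST3 replicate 2 did. The median absolute deviation over all tested genes was 0.17, 0.19 and 0.08 on the log2(FPKM + 1) scale in MST3 replicates 1, 3 and 2, against 0.05 to 0.07 in the vector libraries. Each vector library is part of the vector mean, which makes its own deviation smaller, so vector and MST3 values are not on equal terms here. In bulk RNA, fewer cells expressing a gene and less RNA per cell cannot be told apart.

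The sequences just upstream of PGAM5 and FIS1 are shown because both genes lay above the vector mean in MST3 replicates 1 and 3, as described below. HTRA2 and PINK1 did so too and are not shown. The motifs and the choice of PGAM5 and FIS1 were made after the values were seen. RefSeq promoter entries (GRCh38.p14) were found for 9 of the 10 genes, PINK1 having no entry in the table and HTRA2 having 2. Each sequence is the 250 bases before the RefSeq start on the gene's own strand, at chr12:132710592-132710841 (plus strand) for PGAM5 and chr7:101245082-101245331 (minus strand) for FIS1. GENCODE transcripts that start farther upstream place 23 of these bases in an exon of PGAM5 and 4 in an exon of FIS1. Capitals mark matches on either strand to CCGGAAG, the core of sites for ETS factors, to CGCATGCG, the core of sites for NRF1, an activator of mitochondrial genes, and to GGAATG, the core of sites for the TEAD factors through which YAP acts.
PGAM5: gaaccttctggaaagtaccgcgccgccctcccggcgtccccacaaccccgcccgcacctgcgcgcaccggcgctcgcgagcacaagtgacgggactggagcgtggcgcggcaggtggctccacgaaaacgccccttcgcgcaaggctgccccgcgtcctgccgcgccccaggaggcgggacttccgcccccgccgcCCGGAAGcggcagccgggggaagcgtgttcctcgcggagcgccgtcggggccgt
FIS1: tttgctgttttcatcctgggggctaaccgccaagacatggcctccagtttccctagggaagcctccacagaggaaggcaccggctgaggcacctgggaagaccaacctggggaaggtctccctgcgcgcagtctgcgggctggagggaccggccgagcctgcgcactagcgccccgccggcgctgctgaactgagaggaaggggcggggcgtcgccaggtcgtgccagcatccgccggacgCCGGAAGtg

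The PGAM5 and FIS1 sequences each held 1 match to CCGGAAG. In all, 5 of the 10 entries held this core (PGAM5, FIS1, 1 of the 2 for HTRA2, MFN1 and PARL), against 8.52% of all 35116 entries. OPA1 held the single match to CGCATGCG among the 10 entries, a core found in 1.73% of all. The DNM1L entry held none of the 3 cores. The TEAD core GGAATG was found in 1 of the 10 entries, that of FUNDC1, and in 11.9% of all entries. Of other letters searched on both strands, CCAAT was found in DNM1L and MFN1 (32% of all entries) and the E-box CACGTG in 0 of the 10 (6.34% of all). The GC content was 75.6% for PGAM5 and 67.6% for FIS1, where the median over all entries was 58%. Among the 10 entries only that of MFN1, at 56.8%, lay below this median, and the others ranged from 61.6% to 75.6%. The shares over all entries were not matched for GC content, so they are no like background for GC-rich letters such as CCGGAAG, and no enrichment was tested. These are matches of letters in a window, and no binding was measured.

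None of the 10 mRNAs passed the test of MST3 against vector over all genes. In the comparison by limma, 6 had a higher mean in the MST3 libraries (FIS1, PGAM5, HTRA2, PINK1, FUNDC1 and MFN2) and 4 a lower one (OPA1, PARL, MFN1 and DNM1L). Of all tested genes, 46.6% were higher, the share to set beside such counts here and in the lists below. Among the 10, the largest differences were 0.42 for FIS1 and -0.19 for OPA1 on the log2(FPKM + 1) scale. None had an adjusted p under 0.05, a threshold that 0.00767% of the 13036 tested genes passed, that is STK24 alone. At an unadjusted p under 0.05 there was 1 of the 10, HTRA2, where 5.38% of all tested genes reached that level. HTRA2 was also the 1 gene of the 10 whose MST3 values all lay above its vector values, as 5.19% of tested genes did, and 0 of the 10 had all MST3 values below, as 6.7% did. The median difference of the 10 was 0.05, beside -0.01 for all tested genes, and leaving out a library gave from -0.0040 (MST3 replicate 1) to 0.11 (vector replicate 3), with -0.00065 for vector replicate 1. The 95% interval held 0 for 9 of the 10, all but HTRA2. A difference on log2(FPKM + 1) understates the ratio of genes with low values, such as PARL.

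**Figure D1:**
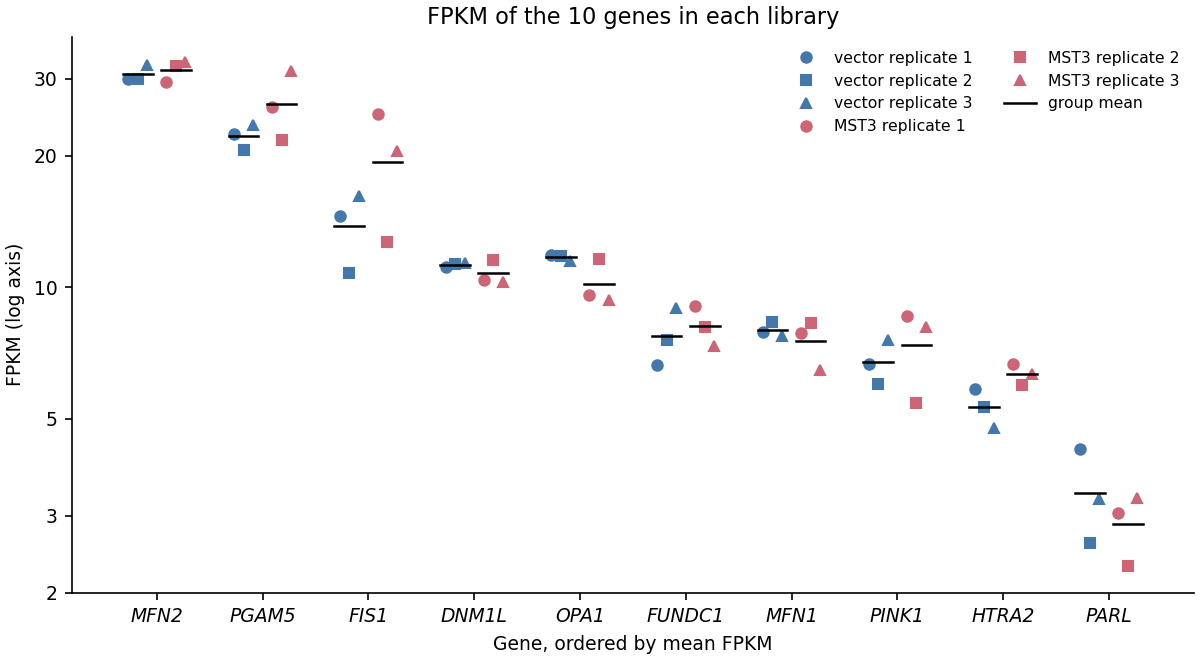
FPKM of the 10 genes on a log axis, with 1 point for each of the 3 vector libraries (blue) and 3 MST3 libraries (red), a marker shape for each replicate number and a line at each group mean. HTRA2 alone has its 3 MST3 points above its 3 vector points, and the FIS1 points span 10.8 to 24.9 FPKM.

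Levels per length ran from MFN2, with a mean of 31.1 FPKM over the 6 libraries, to PARL, with 3.13 FPKM. PGAM5 ranked below MFN2 and above FIS1 in each of the 6 libraries, although the ranges overlapped across libraries. DNM1L and OPA1 could not be ordered, since their ranges of 10.3 to 11.6 and 9.38 to 11.9 FPKM overlapped and DNM1L was the higher in 2 of 6 libraries. The lowest OPA1 value lay above the highest FUNDC1 value of 9.05 FPKM, which set the upper 5 genes apart from the lower 5. FUNDC1, MFN1 and PINK1 overlapped one another, and HTRA2 lay below PINK1 in 5 of 6 libraries. PARL was the lowest of the 10 in every library, with at most 4.26 FPKM.

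PGAM5 (ENSG00000247077, chromosome 12, 132710819 to 132722734, plus strand, GRCh38) had 22.5, 20.7 and 23.5 FPKM in vector replicates 1 to 3 and 25.8, 21.8 and 31.2 FPKM in MST3 replicates 1 to 3. MST3 replicates 1 and 3 were above all vector libraries, while MST3 replicate 2 lay between them. The group means were 22.2 ± 1.46 and 26.3 ± 4.72 FPKM (SD, n = 3), and the spread of the MST3 libraries exceeded the difference of the means. The log2 difference was 0.22 (SE 0.13, 95% interval -0.10 to 0.53, adjusted p = 0.719 by limma), and an exact two-sided permutation test of the 6 values gave p = 0.3, where 3 against 3 allow no p below 0.1. The values rest on 1400 to 2114 reads per library. Leaving out MST3 replicate 3 gave 0.09, and leaving out MST3 replicate 2 gave 0.34 (adjusted p = 0.221 by limma).

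PARL (ENSG00000175193, chromosome 3, 183829271 to 183884933, minus strand), the rhomboid protease that cuts PGAM5 and PINK1, had 4.26, 2.60 and 3.28 FPKM with vector and 3.04, 2.31 and 3.29 FPKM with MST3. Its groups overlapped, and the widest gap within a group was between vector replicates 1 and 2. The log2 difference was -0.17 (SE 0.16, 95% interval -0.55 to 0.21), and leaving out a library gave from -0.30 (vector replicate 2) to -0.025 (vector replicate 1). PARL had the fewest reads of the 10, with 91 to 170 per library, and 47.2% of its exonic bases are also exons of AC131160.1, a gene model on the same strand that averaged 0.0439 FPKM. How reads in such shared exons were counted is not given in the sources used here, so the level of PARL is uncertain.

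HTRA2 (ENSG00000115317, chromosome 2, 74529377 to 74533348, plus strand) encodes a serine protease of the intermembrane space that, once released, binds inhibitor of apoptosis proteins. It had 5.84, 5.33 and 4.77 FPKM with vector and 6.69, 5.97 and 6.32 FPKM with MST3, with no overlap between groups. The gap between the lowest MST3 value and the highest vector value was small beside the spread within each group. Means were 5.31 ± 0.533 and 6.32 ± 0.36 FPKM (SD, n = 3), a ratio of 1.19. The log2 difference was 0.22 (SE 0.09, 95% interval 0.006 to 0.43), with an unadjusted p = 0.045 and an adjusted p = 0.719 by limma, and the exact permutation p was 0.1, the smallest possible. Of its exonic bases 16.1% are also exons of AUP1 and 20.8% exons of LOXL3, both on the opposite strand, and without a stated strand setting such reads cannot be told apart. AUP1, at 24.2 and 25.7 FPKM in the vector and MST3 groups, was expressed above HTRA2 in both groups.

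DNM1L (ENSG00000087470, chromosome 12, 32679200 to 32745650, plus strand) had 11.1, 11.3 and 11.4 FPKM with vector and 10.4, 11.6 and 10.3 FPKM with MST3. The vector libraries were the closest of any of the 10 genes, with an SD of 0.139 FPKM, and MST3 replicates 1 and 3 lay below them. The log2 difference was -0.06 (SE 0.08, 95% interval -0.24 to 0.12), with the narrowest interval among the 10 genes, and leaving out MST3 replicates 2 and 3 in turn gave -0.11 and -0.034. FUNDC1 (ENSG00000069509, chromosome X, 44523639 to 44543001, minus strand), the outer membrane receptor that recruits autophagosomes, had 6.63, 7.59 and 8.97 FPKM with vector and 9.05, 8.11 and 7.34 FPKM with MST3. The groups overlapped, with the lowest value in a vector and the highest in an MST3 library, and the log2 difference was 0.07 (SE 0.12, 95% interval -0.21 to 0.36). Leaving out vector replicate 1 gave -0.018 for FUNDC1, and leaving out vector replicate 3 gave 0.18.

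FIS1 (ENSG00000214253, chromosome 7, 101239458 to 101252316, minus strand), an outer membrane protein linked to fission, had 14.5, 10.8 and 16.2 FPKM with vector and 24.9, 12.7 and 20.5 FPKM with MST3. Its SD in FPKM was the largest of the 10 genes in both groups, and MST3 replicate 2 fell inside the vector range. The means of 13.8 ± 2.77 and 19.3 ± 6.2 FPKM (SD, n = 3) gave a ratio of 1.4, with a log2 difference of 0.42 (SE 0.25, 95% interval -0.15 to 1.00, adjusted p = 0.719 by limma). Leaving out MST3 replicate 1 gave 0.22, and leaving out MST3 replicate 2 gave 0.69 (adjusted p = 0.214 by limma). The ratio of FIS1 to DNM1L within a library was 1.31, 0.956 and 1.42 with vector and 2.39, 1.1 and 1.99 with MST3, so it too was high in MST3 replicates 1 and 3 and within the vector range in replicate 2. This ratio was chosen after the values were seen.

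OPA1 (ENSG00000198836, chromosome 3, 193593144 to 193697823, plus strand), the dynamin-like GTPase of inner membrane fusion and cristae, had 11.9, 11.8 and 11.5 FPKM with vector and 9.63, 11.6 and 9.38 FPKM with MST3. MST3 replicates 1 and 3 were below every vector library, and MST3 replicate 2 was just above vector replicate 3. The log2 difference was -0.19 (SE 0.09, 95% interval -0.41 to 0.03, adjusted p = 0.719 by limma), and it was -0.28 without MST3 replicate 2 (adjusted p = 0.214 by limma). GENCODE lists 33 transcripts of OPA1, 15 of them coding, and gene totals do not separate them. MFN1 and MFN2 are the outer membrane GTPases that tether and fuse mitochondria. MFN2 (ENSG00000116688, chromosome 1, 11980181 to 12013514, plus strand) had 30.0, 29.9 and 32.2 FPKM with vector and 29.5, 32.0 and 32.8 FPKM with MST3. Its log2 difference was 0.03 (SE 0.08, 95% interval -0.16 to 0.23), and it ranged from 0.0019 without MST3 replicate 3 to 0.077 without MST3 replicate 1. MFN1 (ENSG00000171109, chromosome 3, 179347692 to 179394931, plus strand) had 7.91, 8.32 and 7.72 FPKM with vector and 7.85, 8.30 and 6.46 FPKM with MST3. Only MST3 replicate 3 lay outside its vector range, and the log2 difference was -0.08 (SE 0.10, 95% interval -0.31 to 0.15), or 0.015 without MST3 replicate 3 and -0.14 without MST3 replicate 2. MFN2 exceeded MFN1 in every library, by 3.59- to 4.17-fold in the vector and 3.75- to 5.07-fold in the MST3 libraries.

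PINK1 (ENSG00000158828, chromosome 1, 20633455 to 20651511, plus strand), the kinase that builds up on depolarised mitochondria, had 6.68, 6.02 and 7.57 FPKM with vector and 8.62, 5.43 and 8.12 FPKM with MST3. The MST3 libraries held both the 2 highest values and the lowest, so the groups overlapped fully. The log2 difference was 0.10 (SE 0.16, 95% interval -0.29 to 0.48), and it was -0.014 without MST3 replicate 1. PINK1-AS, a transcript from the opposite strand whose exons cover 39.4% of the exonic bases of PINK1, had 1.81 ± 0.224 and 1.69 ± 0.131 FPKM (SD, n = 3).

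**Figure D2:**
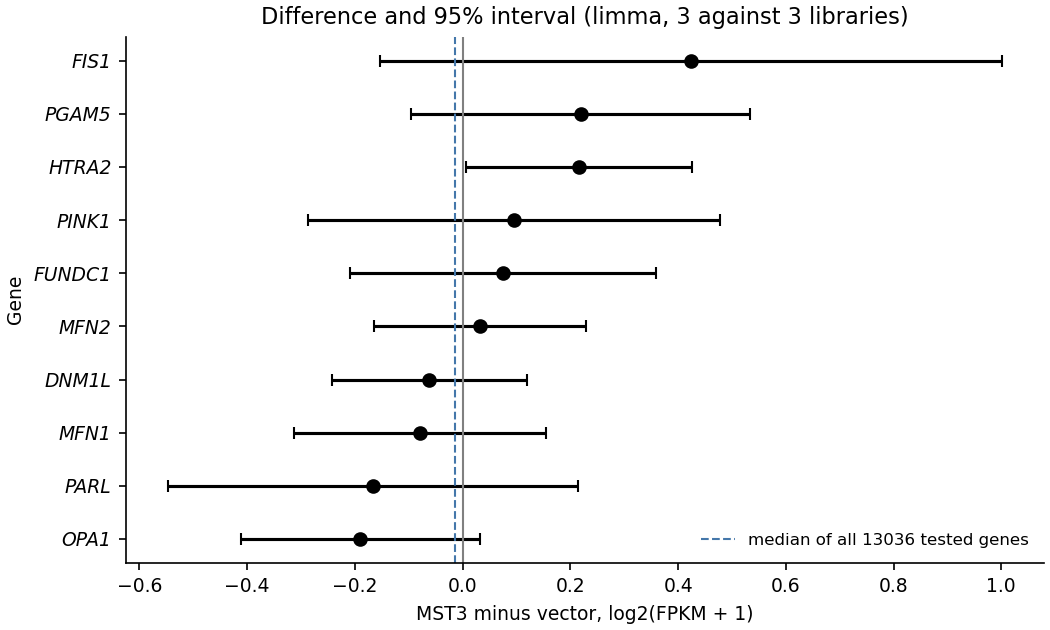
Difference of MST3 minus vector on log2(FPKM + 1) for each of the 10 genes, with 95% intervals from limma over 3 against 3 libraries, a grey line at 0 and a dashed line at the median of all tested genes. The HTRA2 interval alone lies above 0, starting at 0.006, and the FIS1 interval is the widest.

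The 3 MST3 libraries did not lie equally far from the vector libraries. Set against the vector mean on the log2(FPKM + 1) scale, MST3 replicate 3 was the farthest MST3 library for 5 of the genes, replicate 1 for 4 and replicate 2 for 1, PARL. FIS1, PGAM5, PINK1 and HTRA2 lay above the vector mean in both MST3 replicates 1 and 3 (0.82 and 0.55 for FIS1, 0.21 and 0.47 for PGAM5, 0.32 and 0.24 for PINK1, 0.29 and 0.22 for HTRA2). OPA1, DNM1L, MFN1 and PARL lay below it in both (-0.26 and -0.29 for OPA1, -0.10 and -0.12 for DNM1L, -0.02 and -0.27 for MFN1, -0.10 and -0.01 for PARL). FUNDC1 (0.21 and -0.06) and MFN2 (-0.06 and 0.09) lay on opposite sides of the vector mean in MST3 replicates 1 and 3. In MST3 replicate 2, FIS1, PGAM5, OPA1 and DNM1L lay between -0.10 and 0.03, PINK1 at -0.27 and HTRA2 at 0.15. MFN1, MFN2 and FUNDC1 lay there at 0.05, 0.06 and 0.07, and PARL at -0.39, the lowest value of the 10 genes in any MST3 library. The median absolute deviation of the 10 genes was 0.21, 0.07 and 0.23 in MST3 replicates 1 to 3, near the 0.17, 0.08 and 0.19 of all tested genes. What set MST3 replicates 1 and 3 apart from replicate 2 was not tested. Without MST3 replicate 2 the count at an unadjusted p under 0.05 was 5 of the 10 (FIS1, OPA1, PGAM5, PINK1 and HTRA2), when 19.6% of all tested genes reached that level. The count was 0 with MST3 replicate 1, MST3 replicate 3, vector replicate 2 or vector replicate 3 left out, when 2.29% to 6.67% of all tested genes did.

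**Figure D3:**
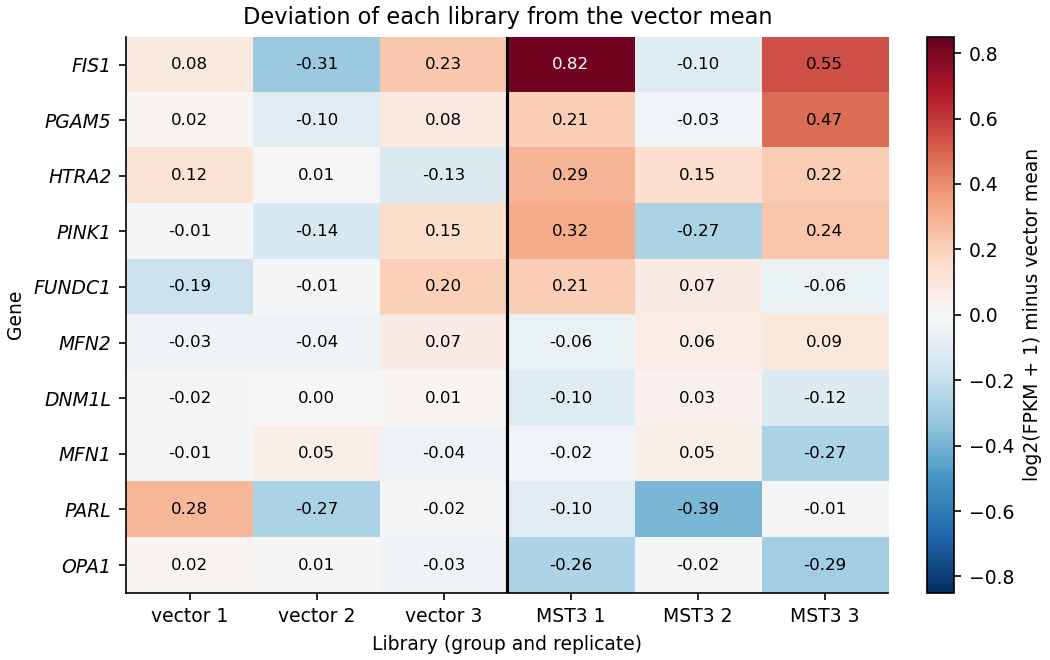
Deviation of each library from the vector mean on log2(FPKM + 1) for the 10 genes, ordered by group difference, with red above and blue below the vector mean and a line between the 3 vector and the 3 MST3 libraries. FIS1 reaches 0.82 in MST3 replicate 1 and -0.10 in MST3 replicate 2.

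Across the 6 libraries the levels of PGAM5 and MFN1 were opposed (Pearson r = -0.94 on log2(FPKM + 1)), as were those of PGAM5 and OPA1 (r = -0.91), while DNM1L went with OPA1 (r = 0.93) and PINK1 with FIS1 (r = 0.92). These are descriptions over the same 6 libraries, 2 of which, MST3 replicates 1 and 3, lie apart from the rest. Among 10878 other protein-coding tested genes, SLC30A3 (r = 0.999), RASSF7 (0.998), HES6 (0.998) and EVPL (0.997) were most like PGAM5. In all, 840 of them had an r over 0.9 with PGAM5. Those most like DNM1L were RPS10 (r = 0.997), ABI2 (0.992), FAM208B (0.990) and CRYBG3 (0.990), with 656 genes over 0.9, and RPS10 has copies that can share its reads.

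The wider fission machinery had a lower mean in the MST3 libraries for 10 of 16 tested genes and a higher one for 6, with a median log2 difference of -0.05. None passed over all genes by limma, and 3 had an unadjusted p under 0.05 (MTFR1, MTFR2 and SENP5), beside 5.38% of all tested genes. The MST3 and vector values did not overlap for 5 genes, all lower, where 6.7% of all tested genes were of this kind. They were MTFR2 (7.58 ± 0.967 against 5.68 ± 0.368 FPKM, SD, n = 3; adjusted p = 0.719), its relatives MTFR1 (15.1 ± 1.03 against 12.1 ± 1.46 FPKM) and MTFR1L, the SUMO protease SENP5 and SLC25A46, the last 3 named after their values were seen. The DNM1L receptors had means of 9.94 and 8.63 FPKM for MFF (log2 difference -0.18), 10.7 and 10.3 FPKM for MIEF1 (-0.06) and 3.34 and 3.6 FPKM for MIEF2 (0.09) in the vector and MST3 groups. MARCHF5, a ubiquitin ligase of the outer membrane, had 17.9 ± 0.0626 and 17.4 ± 0.773 FPKM (SD, n = 3). MTFP1 averaged 0.577 and 1.09 FPKM and was too low to test.

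Regulators of fusion had 7 of 12 genes higher, with a median of 0.01, 0 passing over all genes by limma and 1, ROMO1, at an unadjusted p under 0.05, beside 5.38% of all tested genes. OMA1 and YME1L1, the proteases that cut OPA1, had 3.12 and 2.95 FPKM (log2 difference -0.06) and 28.0 and 26.0 FPKM (-0.10). The prohibitin PHB2 had 122 and 130 FPKM. ROMO1, a small inner membrane protein, had 21.2, 22.5 and 24.9 FPKM with vector and 61.9, 27.1 and 31.3 FPKM with MST3. Its groups did not overlap, as for no other gene of this list, where 5.19% of all tested genes were higher without overlap. MST3 replicate 1 stood far above the rest for ROMO1 (adjusted p = 0.719 by limma). MIGA2 had the next smallest p of this list, with 2.7 and 3.22 FPKM.

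Cristae genes, which shape the inner membrane where OPA1 acts, had 7 of 10 tested genes higher and a median of 0.19, with 0 passing over all genes by limma and 3 at an unadjusted p under 0.05 (APOO, CHCHD6 and C19orf70), as 5.38% of all tested genes were. The median was 0.11 without MST3 replicate 1. The groups did not overlap for APOO, CHCHD6, C19orf70 (MICOS13) and MTX2, all higher (5.19% of all tested genes), nor for IMMT (mitofilin), which was lower (6.7% of all). APOO had 4.47, 4.71 and 4.21 FPKM with vector and 6.05, 5.85 and 5.26 FPKM with MST3. CHCHD6 had 8.65, 6.67 and 7.22 FPKM and then 9.94, 9.38 and 10.2 FPKM. For both, all 3 MST3 libraries were above all vector libraries, which was not so for FIS1 or PGAM5. IMMT, the core of the MICOS complex, averaged 48.9 ± 6.55 and 40.6 ± 3.19 FPKM with vector and with MST3 (SD, n = 3). The unadjusted p by limma was 0.00789 for APOO, 0.00963 for CHCHD6 and 0.0632 for IMMT, and the adjusted p = 0.719 for each. C19orf70 and MTX2 were named after their values were seen.

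Mitophagy genes had 11 of 31 tested genes higher and 20 lower, with a median of -0.03, 0 passing by limma over all genes and 2 at an unadjusted p under 0.05 (CSNK2A2 and TOMM7), beside 5.38% of all tested genes. The groups did not overlap for 1 gene that was higher, TOMM7, and 5 that were lower, CSNK2A2, USP30, CALCOCO2, OPTN and BCL2L13, where 5.19% and 6.7% of all tested genes did so; the last 3 were named after their values were seen. The receptors BNIP3 (41.4 and 43.8 FPKM) and BNIP3L (73.3 and 67.3 FPKM) were expressed above FUNDC1, and FUNDC2 had 2.04 and 2.08 FPKM. USP30, a deubiquitinase of the outer membrane that restrains mitophagy, had 3.3 ± 0.191 and 2.72 ± 0.275 FPKM (SD, n = 3; adjusted p = 0.719 by limma), with groups that did not overlap. CSNK2A2, a catalytic subunit of the kinase CK2 that phosphorylates FUNDC1, had 20.7, 21.0 and 20.7 FPKM with vector and 14.8, 19.8 and 16.6 FPKM with MST3. TOMM7, a subunit of the import pore that helps hold PINK1 on the outer membrane, had 7.66 to 7.90 FPKM with vector and 30.4, 10.2 and 10.8 FPKM with MST3, with MST3 replicate 1 far above the other 2.

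Another list joined STK24 and YAP1 to genes for proteins known to bind PGAM5 or act with it, or to act in cell death beside HTRA2. Of its 14 tested genes, 7 were higher and 7 lower, with a median of -0.01. Both the higher count and the median include STK24, the overexpressed gene. Apart from STK24, none passed over all genes by limma. At an unadjusted p under 0.05 there was YAP1 besides STK24, where 5.38% of all tested genes reached that level. KEAP1, the adaptor that tethers PGAM5 to a ubiquitin ligase, had 16.7 ± 0.499 and 19.1 ± 2.88 FPKM (SD, n = 3), a log2 difference of 0.17. The PGAM5 substrate MAP3K5 (ASK1) had 4.86 and 4.67 FPKM, BCL2L1 (BCL-xL), which binds PGAM5, had 31.7 and 34.5 FPKM, and AXIN1, a scaffold of the Wnt pathway, had 6.17 and 6.61 FPKM. YAP1, lower in the MST3 group at 127 against 203 FPKM, had the next smallest p of this list after STK24. It had 197, 205 and 205 FPKM with vector and 107, 129 and 144 FPKM with MST3, with no overlap between groups. Of all tested genes, 6.7% were lower without overlap. The log2 difference of YAP1 was -0.68 (SE 0.12), with an unadjusted p = 0.000695 and an adjusted p = 0.719 by limma. That unadjusted p ranked 8 among all tested genes, where chance alone would give 9.06 genes with so small a p. RIPK3, the kinase of necroptosis, had 0 to 2 reads per library and was not tested. DIABLO, listed under 2 overlapping entries that can share reads, had 0.382 and 0.457 FPKM in the higher of them.

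**Figure D4:**
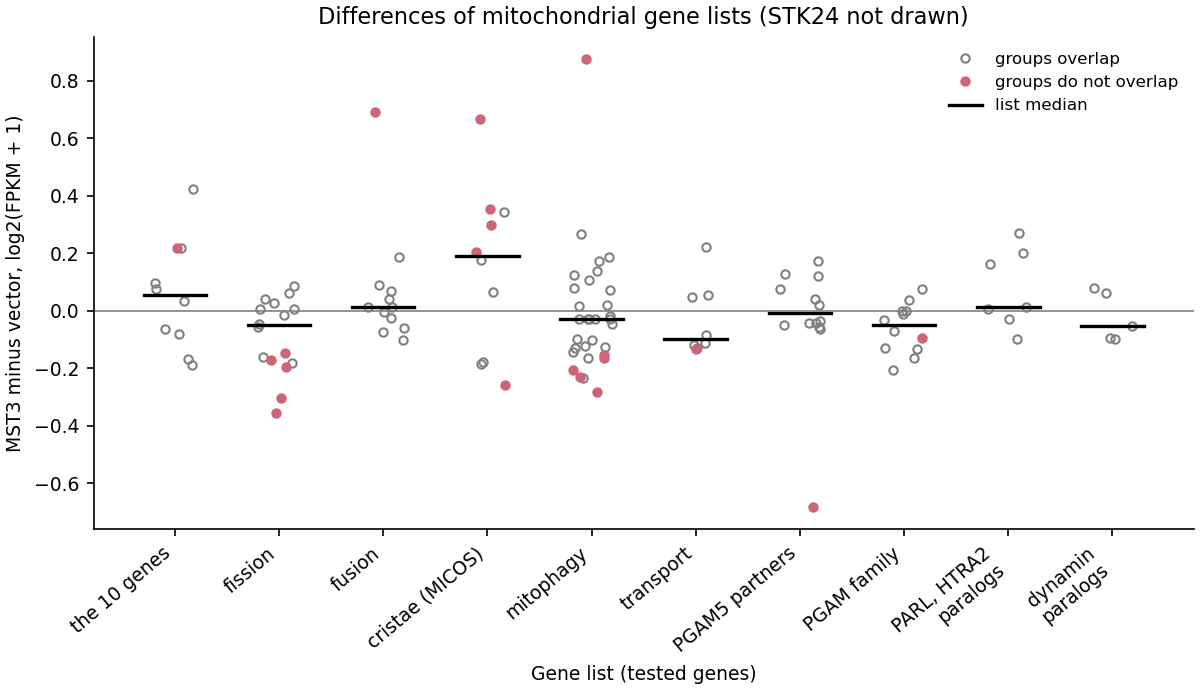
Difference of MST3 minus vector on log2(FPKM + 1) for the tested genes of each list, with filled points where the 3 MST3 and 3 vector values do not overlap, open points where they do, and a bar at each list's median. The cristae list has the highest median, 0.19, and the fission list has 5 filled points, all below 0. STK24 is left out of the plot and kept in the median of the PGAM5 partners.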

How the data were processed

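RNA was sequenced from 3 vector and 3 MST3 libraries of HCT116. The authors deposited 1 table of FPKM values per gene and library; HISAT2 is named per the submitters' processing notes, while for the counting program, strand setting, build and annotation the labels and header name nothing. All 58735 Ensembl entries match GENCODE 29 positions, hence GRCh38. FPKM times gene length was a whole multiple of 1 step per library for 100% of values (tolerance 0.01), which gives the reads. Median-of-ratios factors over genes above 0 in all libraries were the same for all 6 (1.005), so that scaling changes no difference between groups. 27 entries carry names written as dates, and their symbols were restored by Ensembl identifier.

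The main test used limma 3.58.1 (R 4.3.3; eBayes with trend, two-sided) after log2(FPKM + 1), over the 13036 genes whose mean reached 1 FPKM, Benjamini-Hochberg adjusted over all of them at 0.05. The fit was also run on simulated data with the same spread set for all libraries. In the real data MST3 replicates 1 and 3 lie apart from the rest, so that run cannot show how the fit performs on them. Tables and plots used Python 3.11.15, pandas 2.3.3, numpy 2.4.6, scipy 1.17.1 and matplotlib 3.10.9. Promoters and motif counts came from RefSeq (GRCh38.p14), and exon overlaps from GENCODE 29.

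The 10 genes and the lists were chosen with earlier results of these data known. Genes were named by rule: the 10, STK24, a panel of 22, the 2 with the smallest p in each list, overlapping genes, and the 4 most like PGAM5 and DNM1L; 1 gene of the panel is not reported here. Non-overlapping list genes outside this rule were named after their values were seen, and the text says so. Alternatives covered the pseudocount, the filter, scaling, variance trend, replicate block, limma voom on recovered reads, and each library left out.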

Additional observations from a re-analysis of the deposited data

How the results depend on the processing

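Of 140 recomputed differences of the 10 genes (14 alternatives each), 137 kept their direction and 0 had an adjusted p under 0.05 by limma. The 3 that reversed came from single libraries left out: FUNDC1 ranged from -0.018 to 0.18, PINK1 from -0.014 to 0.28 and MFN1 from -0.14 to 0.015 on the log2 scale. Changing the filter, the variance trend or the replicate block cannot alter a difference, and the median-of-ratios factors were equal for all libraries. Under these alternatives the direction was fixed in advance, so the count of kept directions overstates how far it was tried. The number of the 10 genes at an unadjusted p under 0.05 was 1. It was 0 with a filter at 0.1 FPKM, 0 without a variance trend and 0 by limma voom on the recovered reads. The shares of all tested genes at that level were then 5.08%, 5.15% and 6.68%. With the replicate block the number was 2 (FIS1 and HTRA2), when 1338 of all tested genes (10.3%) reached that level, against 701 without the block. With each library left out the number ranged from 0 to 5. The 5 came without MST3 replicate 2, when 19.6% of all tested genes reached that level. With any other library left out, that share was from 2.29% to 6.67%. The number of genes called over the table was 1, STK24, under each of the 14 alternatives. Whether replicate numbers pair the samples could not be decided. Deviations from group means correlated at 0.016, 0.23 and 0.035 between same-numbered libraries, and not every library correlated best with its own number. With 3 libraries in each group, such correlations can neither show nor exclude pairing. List medians moved too: with each library left out, fission ranged from -0.14 to -0.023, fusion from -0.022 to 0.076, cristae from 0.11 to 0.25, mitophagy from -0.10 to -0.030, transport from -0.16 to -0.039 and PGAM5 partners from -0.039 to 0.017, and limma voom gave 0.0024 for mitophagy. The cause of these shifts was not tested. Depth limits PARL most, at 91 to 170 reads per library, and FUNDC1 next, at 163 to 219.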

Other observations

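The phosphoglycerate mutase family beyond PGAM5 had 10 of 12 tested genes with a lower mean in the MST3 libraries. The amounts were small (median log2 difference -0.05, beside -0.01 for all tested genes, of which 6967 of 13036 were lower). PGAM1, the glycolytic enzyme of the family, averaged 406 ± 18.3 and 403 ± 25.2 FPKM with vector and with MST3 (SD, n = 3), far above PGAM5, and its copy PGAM4 can share its reads. UBASH3B had 7.05 to 7.21 FPKM in the vector and 6.32 to 6.91 FPKM in the MST3 libraries, with no overlap, and MINPP1 had 11.2 and 9.93 FPKM. Carriers that move mitochondria along microtubules had 5 of 8 tested genes lower, with a median of -0.10. RHOT1 (Miro1) had 9.47 and 8.65 FPKM and TRAK1 8.06 and 7.27 FPKM, while RHOT2 (Miro2) had 7.42 and 8.92 FPKM. Among paralogs of PARL and HTRA2, RHBDD3 had 4.07 and 5.16 FPKM and RHBDL3 2.49 and 3.01 FPKM, while HTRA1, HTRA3 and HTRA4 averaged under 1 FPKM, so that HTRA2 was the 1 member of its family high enough to test. Dynamin relatives had 2 of 5 tested genes higher, with ATL3 at 8.14 and 7.55 FPKM and DNM3 at 1.09 and 0.952 FPKM. By limma, 0 genes of these 4 lists passed over all genes, as 0.00767% of all tested genes did. An unadjusted p under 0.05 was reached by 0 of them, where 5.38% of all tested genes reached it. The groups did not overlap for UBASH3B and TRAK1, both lower, and for no other tested gene of these lists. Of all tested genes, 6.7% were lower without overlap.

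In the deposited table MARCHF5 appears under a name turned into a date, as do 26 other entries, among them septins and other ubiquitin ligases of its family, so a search by symbol misses them.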
